A study of Mus musculus with 9 samples.

Results

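The genes described here are the replication-dependent histone genes and the small RNA genes that lack a poly(A) tail, taken by name from 3 tables of normalised read counts: every gene whose symbol starts with Hist1h to Hist4h (21 genes) and every gene named as a 7SL, 7SK, Y, RNase P, RNase MRP, small nucleolar, small Cajal body or small nuclear RNA (27 genes). Together they are 48 of the 17093 genes in the tables. The members were chosen by name, but the names were selected on their high normalised counts in the inhibitor-treated libraries, so for the members every value that compares those libraries with the others is a description, and counts past the test's threshold are printed there with no reading. Genes outside the rule, such as protein partners, were tested in every comparison whose low-count filter they passed. The comparison of injured with sham arteries did not enter the choice and was tested.

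RNA came from femoral artery media (the layer of smooth muscle) of C57BL/6 mice in 9 libraries, 3 in each of 3 groups. The sham group had sham surgery. The injured group was collected at day 14 after wire injury, and the third group, called inhibitor-treated below, was collected at day 14 after the same injury from mice given VS-4718, an inhibitor of focal adhesion kinase (FAK), at 50 mg/kg by gavage, 2 times a day for 2 weeks. Per the labels each mouse received the inhibitor or a citrate vehicle. Fat and adventitia were dissected off, and a short flush of the lumen with lysis reagent was used against endothelial and immune cells, so the RNA is that of whole media and not of sorted cells. The number of animals per library is not in the labels, so the p-values below speak of the spread among these samples alone, and that spread may be technical.

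Most messenger RNAs end in a poly(A) tail, and most of the genes described here do not make one. Replication-dependent histone messenger RNAs, which supply core and linker histones while DNA is copied, end instead at a short stem-loop that is bound by stem-loop binding protein (Slbp) and cut with the help of the U7 small nuclear ribonucleoprotein. Some of these genes also give polyadenylated transcripts in cells that have stopped dividing. The small RNAs are structural or catalytic: 7SK holds the elongation kinase P-TEFb inactive, RNase P and RNase MRP RNA process transfer and ribosomal RNA, Y RNAs bind the Ro60 and La proteins, 7SL is the RNA of the signal recognition particle, and small nucleolar and small Cajal body RNAs guide chemical modification of ribosomal and spliceosomal RNA. In artery the smooth muscle cell is mostly non-dividing until injury, when cells re-enter the cell cycle. How RNA was selected before library preparation (by poly(A) tail, by removal of ribosomal RNA or otherwise) and how short fragments were removed is not given in the sources used here. Both steps decide how much of an RNA without a tail, or of a very short RNA, is read.

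The libraries held between 14676891 and 21248740 reads in the tables. Contractile smooth muscle markers were abundant in every library, with a summed normalised count of 490277 to 657440 in sham, 142994 to 170109 in injured and 573517 to 584127 in inhibitor-treated libraries, and 7 of 7 fell with injury. Markers of other tissues differed between libraries. The mean log2 normalised count of 10 hepatocyte markers was 10.5 in inhibitor-treated replicate 3 and 1.57 to 3.05 in the 8 others, and that of 10 skeletal muscle markers was 14.7 in injured replicate 2, 11.8 and 10.9 in injured replicates 1 and 3, 8.23 to 11 in sham and 7.49 to 10.9 in inhibitor-treated libraries. Counts are given below also without injured replicate 2, sham replicate 3 (the highest sham library on muscle markers, though no higher than injured replicate 1) and inhibitor-treated replicate 3, called the 3 marker-high libraries. Without them 2538 of 16278 genes rose and 1604 fell with injury, 1461 rose and 1608 fell of 16901 in inhibitor-treated against injured libraries, and 639 rose and 43 fell of 16166 against sham. Erythroid markers other than globins separated the groups: 12 of 14 measured were called higher in inhibitor-treated than injured libraries and 13 of 14 higher than in sham (16 were listed, and Klf1 and Ahsp were not analysed here). Of all genes tested 17.6% and 5.15% were called higher. Only 5 of the 14 were tested in injured versus sham. The others passed the low-count filter through their inhibitor-treated level, so for them these calls are a description. Their summed normalised count was 516 to 803 in sham, 631 to 1096 in injured and 40409 to 92385 in inhibitor-treated libraries. Gata1, the erythroid master regulator, was at 0 in every sham library, and Tspo2 was at 0 in every injured library. In RNA from whole tissue, fewer cells of a type and less RNA per cell cannot be told apart.

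Small RNA genes held 0.00189% to 0.00262% of all reads in the 6 sham and injured libraries and 0.182%, 0.115% and 0.132% in inhibitor-treated replicates 1, 2 and 3. Histone genes held 0.0169% to 0.0227% of reads in the 6 others and 0.0254%, 0.0322% and 0.0213% in the inhibitor-treated libraries. The 2 classes thus differed in size and in form: the small RNA share did not overlap between inhibitor-treated and other libraries, while the histone share of inhibitor-treated replicate 3 lay below that of injured replicates 1 and 2.

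**Figure D1:**
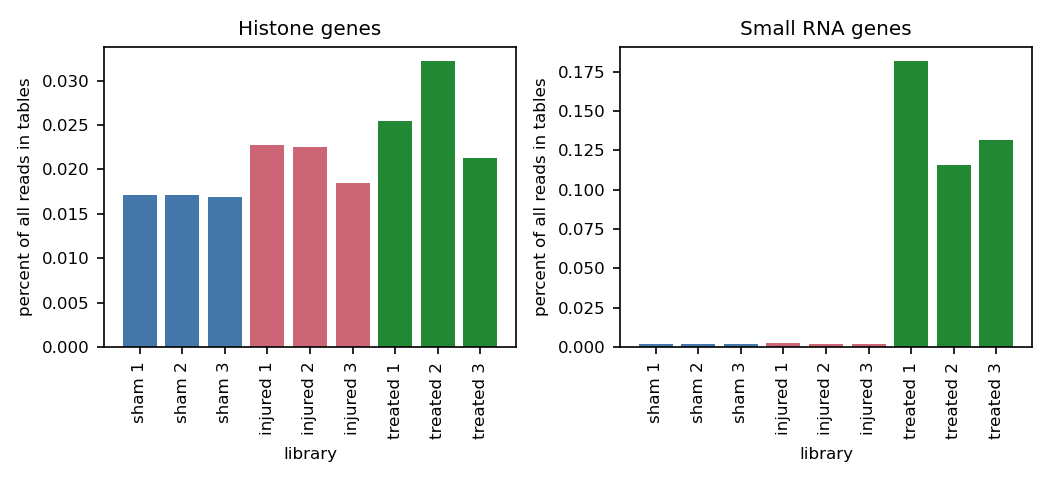
Share of all reads in the tables that fell on the 21 histone genes (left) and the 27 small RNA genes (right) in each of the 9 libraries, in percent, one bar per library and each axis from 0. Small RNA genes reached 0.115% to 0.182% in the inhibitor-treated libraries and at most 0.00262% in the others, and the histone bars of injured and inhibitor-treated libraries overlap.

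Most counts of the small RNA class in the inhibitor-treated libraries came from 1 gene. Rn7sk, the 7SK RNA (ENSMUSG00000065037, GRCm38 chr9:78175303-78175633, minus strand, overlapping no other annotated gene, and transcribed by RNA polymerase III), made up 78.2%, 72.3% and 73.5% of the normalised counts of the 22 small RNA genes with a value in every library. In the sham and injured libraries it made up 1.37% to 8.60%. The first 150 of its 331 bases in the GENCODE vM21 transcripts are shown because it is the member with the highest level. Capitals mark 3 GATC motifs, the short sequence by which 7SK binds the Hexim proteins. In the same annotation 25.2% of 238 small RNA transcripts of like length (281 to 381 bases) held at least 3 of them on the transcript strand.
Rn7sk bases 1 to 150: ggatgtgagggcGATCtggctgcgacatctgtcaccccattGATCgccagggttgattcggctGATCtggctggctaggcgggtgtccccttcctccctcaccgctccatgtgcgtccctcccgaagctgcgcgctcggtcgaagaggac
Normalised counts of Rn7sk were 23.0, 28.1 and 4.36 in sham replicates 1 to 3, 13.1, 15.2 and 15.5 in injured replicates and 26973, 16224 and 18268 in inhibitor-treated replicates. No inhibitor-treated value came near the others. The mean was 20489 ± 5708 (SD, n = 3) in inhibitor-treated libraries, 1405-fold that of injured libraries (14.6 ± 1.27) and 1107-fold that of sham libraries (18.5 ± 12.5). Of the 50-base words of Rn7sk, 68.1% also occur in other annotated genes, most in Gm24447, so reads could be split between copies.

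Rpph1 and Rmrp, the catalytic RNAs of RNase P and RNase MRP, followed. Rpph1 (chr14:50807449-50807767, minus strand) lay at 7.01, 2.34 and 6.53 in sham, 11.9, 7.59 and 12 in injured and 3780, 3063 and 2966 in inhibitor-treated libraries. The 3 inhibitor-treated values were close to each other (3270 ± 444, SD, n = 3), and were 311-fold the injured and 617-fold the sham mean. The gene overlaps Ccnb1ip1, with which it shares 68.1% of its 50-base words. Rmrp (chr4:43492788-43493058, minus strand) gave 9.01, 4.69 and 5.44 in sham, 8.35, 3.79 and 5.15 in injured and 2587, 1790 and 2739 in inhibitor-treated libraries. Its inhibitor-treated mean of 2372 ± 510 was 411-fold the injured and 372-fold the sham mean, and sham and injured values of Rmrp overlapped. The annotation holds another entry of the same name over this gene, so its reads may be split or shared, and it also overlaps Ccdc107.

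The 2 Y RNAs in the tables were almost absent outside the inhibitor-treated libraries. Rny1 and Rny3 are neighbours on chromosome 6, Rny1 at chr6:47788069-47788180 on the minus strand and Rny3 at chr6:47781624-47781725 on the plus strand. Their sequences are shown because they are the only named members under 200 bases that followed the long ones. Capitals mark the closing run of 4 T, which ends 2.83% of 566 transcripts of the same annotation class (misc_RNA) and is the RNA polymerase III stop signal to which La binds.
Rny1: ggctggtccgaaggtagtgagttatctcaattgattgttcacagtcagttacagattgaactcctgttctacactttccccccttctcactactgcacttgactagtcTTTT
Rny3: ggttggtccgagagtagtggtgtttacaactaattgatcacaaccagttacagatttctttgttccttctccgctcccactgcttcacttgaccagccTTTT
Rny1 had 0 reads in the 3 sham libraries, normalised counts of 0, 1.90 and 0.859 in injured and 162, 444 and 110 in inhibitor-treated libraries. With no read in sham, the inhibitor-treated level was at least 221-fold higher, taking 3 reads over the group as the limit that a count of 0 allows. Against injured, with 3 reads in the group, the ratio was 244 (95% counting interval 83.1 to 1185, exact binomial). Rny3 lay at 1.00, 0 and 0 in sham, 1.19, 0 and 0 in injured and 59.8, 250 and 72.7 in inhibitor-treated libraries. In both Y RNAs inhibitor-treated replicate 2 was the highest, which was the lowest of the 3 for Rn7sk and Rmrp. The erythroid markers were also highest in replicate 2, with a mean log2 normalised count of 9.66 against 8.97 and 8.53 in replicates 1 and 3. Their part in the levels of the small RNAs was not tested.

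The 3 small Cajal body RNAs and 1 long small nucleolar RNA had the same form at lower levels. Scarna2, which guides modification of U2 small nuclear RNA, lay at 16, 8.21 and 12 in sham, 8.35, 5.69 and 3.44 in injured and 378, 126 and 268 in inhibitor-treated libraries. Scarna13, inside an intron of Snhg10, lay at 1.00, 0 and 6.53, then 3.58, 0 and 1.72, and then 136, 87.1 and 43.6 in the same order. Scarna10, inside Ncapd2 and overlapping an exon of it, gave 0, 4.69 and 0, then 1.19, 0 and 0, and then 52.2, 44.0 and 46.3. In each of these the lowest inhibitor-treated library was above the highest of the 6 others. Of the 50-base words of Scarna10, 84.8% occur in other genes, most in Gm28967. Snord17 (chr2:144265979-144266216, minus strand, in an intron of Snx5 in every host transcript) had 0, 0 and 1.09 in sham, 1.19, 1.90 and 1.72 in injured and 32.3, 13.8 and 30.9 in inhibitor-treated libraries. Snx5 itself, a polyadenylated host, went the other way in inhibitor-treated against injured libraries, with a log2 difference of -0.97. Its difference was 1.04 for injured against sham and 0.08 for inhibitor-treated against sham.

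Rn7s1 and Rn7s2, both 7SL RNAs of the signal recognition particle, have no 50-base word that tells them apart, so they are better read as 1 locus pair. Rn7s1 lay at 0 to 1.72 in the 6 sham and injured libraries and at 21.8, 39.4 and 18.2 in inhibitor-treated libraries. Rn7s2 lay at 0 to 1.19 in the 6 and at 22.8, 41.3 and 16.4 in inhibitor-treated libraries. Each had 1 or 2 reads per group outside the inhibitor-treated libraries, so a ratio would carry a wide counting interval: for Rn7s1 it was 40.5 against injured (95% interval 10.9 to 340).

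The remaining small RNA members were short guides of 70 to 148 bases, and they behaved differently. The plainest contrast is between box C/D small nucleolar RNAs of different length, which carry box C (TGATGA) near the start and box D (CTGA) near the end, in capitals below. On the transcript strand 24% of 1507 annotated small nucleolar RNA transcripts hold both in this order. Snord17 has 238 bases, Snord123 (chr15:32241853-32241923, minus strand, in an intron of Snhg18) has 71, and Snord104 (chr11:106500993-106501062, plus strand, with no host gene) has 70. Snord17 was listed only through its inhibitor-treated level, which fixed that it stood apart, so no effect of length is read from them.
Snord17: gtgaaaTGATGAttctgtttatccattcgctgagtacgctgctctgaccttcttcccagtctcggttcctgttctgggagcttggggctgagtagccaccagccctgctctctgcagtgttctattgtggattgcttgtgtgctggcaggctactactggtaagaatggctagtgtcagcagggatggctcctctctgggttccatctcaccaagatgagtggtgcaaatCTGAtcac
Snord123: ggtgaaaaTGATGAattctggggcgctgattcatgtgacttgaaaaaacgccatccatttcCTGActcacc
Snord104: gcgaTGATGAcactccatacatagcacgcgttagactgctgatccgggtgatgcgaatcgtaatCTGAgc
Snord104, the highest of the short members, lay at 78.1, 69.2 and 69.7 in sham, 149, 153 and 73.0 in injured and 79.7, 75.2 and 70.0 in inhibitor-treated libraries. Its inhibitor-treated values lay within or beside the sham range, and 2 of 3 injured values were above both. The inhibitor-treated mean of Snord104 was 0.600-fold the injured and 1.04-fold the sham mean. The 11 short members present in all 3 tables together summed to 279 to 289 normalised counts in sham, 263 to 391 in injured and 287 to 327 in inhibitor-treated libraries. The ranges of all 3 groups overlapped.

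**Figure D2:**
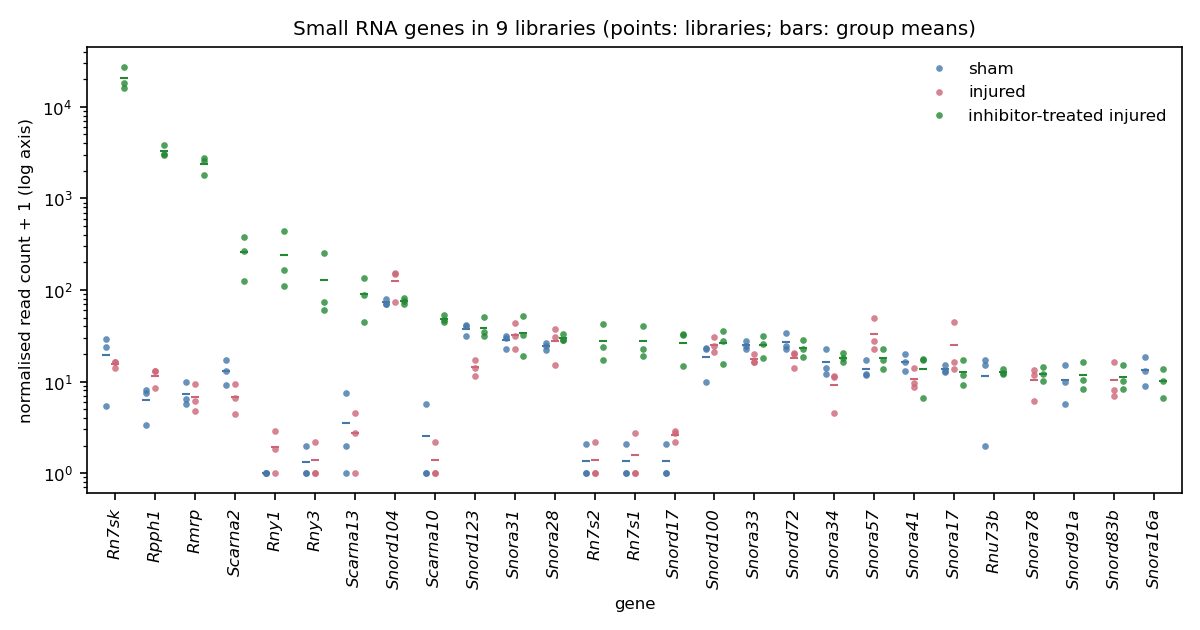
Normalised read count plus 1 on a log axis for the 27 small RNA genes in each library; points are libraries, bars are group means (n = 3), and a group without points is one whose table does not list the gene. Rn7sk, Rpph1 and Rmrp stand at 1790 to 26973 in inhibitor-treated libraries, while the groups of most short guide RNAs overlap.

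Box H/ACA small nucleolar RNAs guide pseudouridylation. Snora28, inside Eif5, lay at 21, 23.4 and 25.0 in sham, 14.3, 29.4 and 36.1 in injured and 27.5, 27.5 and 31.8 in inhibitor-treated libraries. Snora31, in an intron of Tpt1, lay at 29.0, 30.5 and 21.8, then 43.0, 30.3 and 21.5, and then 31.3, 50.5 and 18.2. Snora33, inside Rps12, lay at 27.0, 23.4 and 21.8, then 19.1, 15.2 and 15.5, and then 24.7, 30.3 and 17.3. In Snora31 and Snora33 the inhibitor-treated values overlapped those of both other groups, and in Snora28 they lay above sham and overlapped injured. Snora34, in an intron of Kansl2, lay at 11, 12.9 and 21.8 in sham, 3.58, 10.4 and 10.3 in injured and 17.1, 19.3 and 15.4 in inhibitor-treated libraries. Snora41, in an intron of Eef1b2, lay at 19.0, 15.2 and 12, then 13.1, 8.53 and 7.73, and then 5.70, 16.5 and 16.4. Snora17, with no host gene, lay at 12, 11.7 and 14.2, then 44.1, 15.2 and 12.9, and then 16.1, 8.26 and 10.9. Its injured mean rested on replicate 1. Of the remaining box C/D RNAs, which guide methylation of ribose, Snord100 (inside Rps12) lay at 9.01, 22.3 and 21.8 in sham, 29.8, 19.9 and 23.2 in injured and 26.6, 34.9 and 14.5 in inhibitor-treated libraries, and Snord72 (in an intron of Rpl37) at 33.0, 23.4 and 21.8, then 13.1, 19.0 and 19.8, and then 27.5, 17.4 and 21.8. Snora28, Snora33 and Snord100 share all of their 50-base words with the transcripts of their hosts, so exonic host reads can count towards them.

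Another 5 small RNA members were listed in 1 table only, at low levels. Rnu73b, a small nucleolar RNA in an intron of Rps3a1, lay at 1.00, 16.4 and 14.2 in sham and 11.4, 11 and 12.7 in inhibitor-treated libraries. Snora16a (8.01, 17.6 and 12 in sham) lay at 5.70, 12.8 and 9.09 in inhibitor-treated libraries, and Snord91a (9.01, 4.69 and 14.2) at 9.49, 7.34 and 15.4. Snora78 lay at 10.7, 12.3 and 5.15 in injured and 13.3, 11 and 9.09 in inhibitor-treated libraries, and Snord83b at 7.16, 15.2 and 6.01 and then 14.2, 7.34 and 9.09. The groups overlapped in each of the 5. All 50-base words of Snora16a occur in other genes, most in its host Snhg12.

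The small RNA members that stood apart were mostly the long ones, a pattern noticed in the values, with no test. Of the 9 long members 8, and of the 18 short ones Rny1 and Rny3, were listed in both tables with inhibitor-treated libraries and not in that of injured and sham. Their inhibitor-treated level lifted them over the low-count filter, so standing apart was fixed for these 10 by the listing. Another 5 short members were listed in just 1 table, which held inhibitor-treated libraries, and their groups overlapped. All 9 members of 238 to 414 bases had their lowest inhibitor-treated value over 5 times the highest of the 6 others. Of the 18 members of 70 to 148 bases, 13 had a value in every library and 2 of these, Rny1 and Rny3, met the same mark. Among annotated small RNA genes that the name rule missed, 1 of 8 at or above 200 bases met the same mark (Gm22009, a small Cajal body RNA of 343 bases) and 4 of 40 below (Gm23262, Gm23442, Gm25939 and Gm26397). Of these 48, 5 of the 8 and 35 of the 40 had 9 values. The 4 short ones that met the mark also passed the low-count filter only through their inhibitor-treated level. The long and short members also differed in place: 3 of the 9 long members (Scarna10, Scarna13 and Snord17) and 13 of the 18 short ones lie within a host gene.

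**Figure D3:**
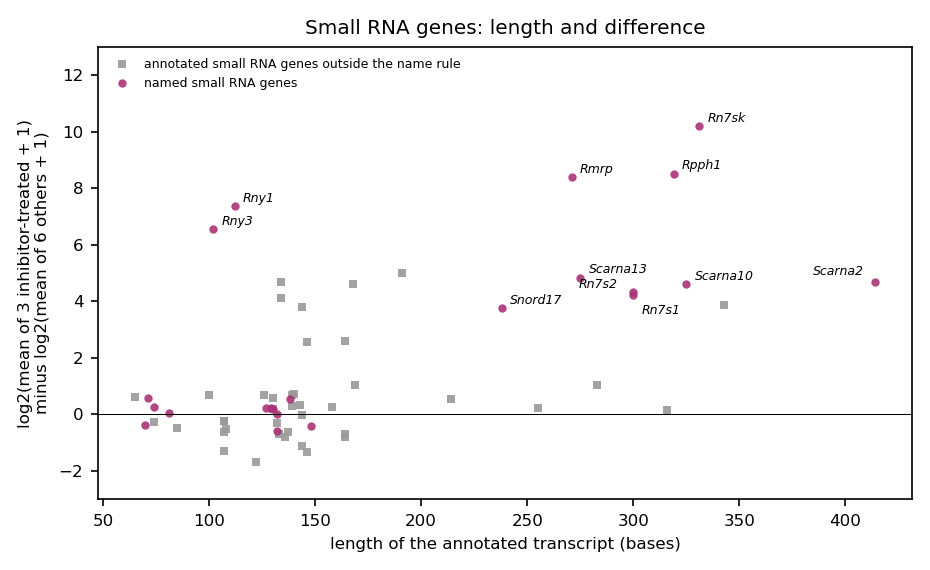
Length of the annotated transcript in bases (horizontal) against log2(mean of the 3 inhibitor-treated libraries + 1) minus log2(mean of the 6 others + 1) (vertical) for small RNA genes with a value in every library; circles are the 22 named members and squares the annotated small RNA genes outside the name rule. The 9 named members of 238 to 414 bases and the short Rny1 and Rny3 lie high, and the other short members lie near 0.

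Whether injury alone changed the small RNAs was tested with limma on log2(normalised count + 1) within the table of injured and sham libraries, with p-values adjusted over all 16278 genes tested by the Benjamini-Hochberg method. Of the 12 small RNA members listed there, 1 rose, 1 fell and 10 did not pass an adjusted p of 0.05, where 37.3% of all genes tested passed (20.6% rose and 16.8% fell). The median log2 difference of the 12 was 0.04, beside -0.003 for all genes. Snord123 fell: it lay at 39.1, 30.5 and 40.3 in sham, 13.1, 10.4 and 16.3 in injured and 30.4, 33.9 and 49.1 in inhibitor-treated libraries. The injured values lay below every sham value, with a log2 difference of -1.41 ± 0.33 (SE) and an adjusted p of 0.0106 (limma). Its host Snhg18, a long noncoding RNA, fell too, with a log2 difference of -0.81 (adjusted p = 0.0121, limma), from 1493 ± 268 in sham to 858 ± 208 in injured libraries (SD, n = 3). Snora57 rose by 1.21 ± 0.41 (adjusted p = 0.0470, limma): it lay at 11, 16.4 and 10.9 in sham, 48.9, 21.8 and 26.6 in injured and 16.1, 12.8 and 21.8 in inhibitor-treated libraries, and Lbhd1 overlaps it. Snord123 kept its call in 16 of 17 alternatives and lost it without injured replicate 2 and sham replicate 3, where its log2 difference was -1.19 (adjusted p = 0.109, limma). The call of Snora57 was lost in 8 of 17 alternatives, in 5 of them with 1 library left out, and without the same 2 libraries its log2 difference was 1.35 (adjusted p = 0.106, limma). Under quantile normalisation 0 rose and 5 fell of the 12. By overlap of the groups, 1 member was higher and 4 lower in all 3 injured libraries than in all 3 sham libraries, where 26.0% and 25.3% of all genes were. Rn7sk itself did not change detectably with injury (log2 difference -0.01 ± 0.64, adjusted p = 0.995, limma), on 45 reads in 3 injured and 51 reads in 3 sham libraries.

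In the comparisons with inhibitor-treated libraries 12 of 24 small RNA members were past the same threshold and higher and 0 lower against injured, where 36.1% of all genes tested were called (17.6% higher and 18.5% lower), and 11 of 25 higher and 0 lower against sham, where 6.08% were called (5.15% higher and 0.934% lower). Without overlap of the groups, 13 were higher and 0 lower against injured (26.1% and 25.5% of all genes) and 12 and 0 against sham (14.7% and 13.1% of all genes). The rule used these contrasts, so nothing is read from the counts. Of these members, 10 in each comparison are absent from the table of injured and sham libraries, and were listed only because their inhibitor-treated level lifted them over the low-count filter of the tables, so they had to differ. For the 12 listed in every table, log2 differences ran from -0.84 to 10.34 against injured (median 0.24) and from -0.34 to 10.34 against sham (median 0.13), with Rn7sk highest in both. Of all genes called against sham, 84.6% were higher, and 73.7% under quantile normalisation. Without the 3 marker-high libraries 11 and 10 members were past the threshold. Both comparisons share the inhibitor-treated libraries, and their values are given side by side for that reason only.

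The proteins that work with these RNAs were tested as 7 lists, beside a list of the genes that host small nucleolar RNAs (1 gene stands in 2 of these lists). With injury 3 of 85 entries rose and 14 fell (20.6% and 16.8% of all genes), in inhibitor-treated against injured libraries 10 of 86 rose and 8 fell (17.6% and 18.5%), and against sham 1 of 85 rose and 2 fell (5.15% and 0.934%). Without the 3 marker-high libraries these counts were 0 and 3, then 1 and 0, and then 0 and 0 (limma; before adjustment, at p under 0.05, 2 and 13, 7 and 1, and 3 and 6), so the calls of Mepce, Pop5, Pop7, Rpp40, Trove2 and Srp68 given next were lost. Of 7 partners of 7SK, 0 rose and 1 fell with injury, where Mepce, which caps 7SK, fell by 0.42 ± 0.14 in log2 units (adjusted p = 0.0460, limma). Mepce rose by 0.50 ± 0.13 in inhibitor-treated against injured libraries (adjusted p = 0.0251, limma), as the only 1 of the 7 called there, and 0 of 7 were called against sham (limma, edgeR and DESeq2, with 1 of 7 lower before adjustment, limma p under 0.05). Hexim1, which with 7SK holds P-TEFb inactive, lay at 1634, 1412 and 1432 in sham, 1631, 1362 and 1440 in injured and 1615, 1615 and 1511 in inhibitor-treated libraries, so the groups overlapped for this partner of Rn7sk. Among 10 measured protein subunits of RNase P and RNase MRP, 1 rose (Pop7, by 0.51 ± 0.17) and 2 fell (Rpp40, by 0.83 ± 0.22, and Pop5, by 0.56 ± 0.13) with injury. In inhibitor-treated against injured libraries 0 of the 10 were called by limma, edgeR or DESeq2 (2 lower before adjustment, limma p under 0.05), and 1 fell against sham (Pop5, by 0.35 ± 0.08). Of the proteins that bind Y RNA, Trove2 (Ro60) rose by 0.39 ± 0.09 in inhibitor-treated against sham libraries (adjusted p = 0.0460, limma, and not called by edgeR), from 1084 ± 86.9 to 1410 ± 128 (SD, n = 3), and Ssb (La) was not called in any comparison.

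The core proteins of small nucleolar ribonucleoproteins gave 0 rising and 2 falling of 11 with injury, namely the assembly factor Naf1 (by 0.62 ± 0.15) and Nop10 (by 0.39 ± 0.11). In inhibitor-treated against injured libraries 2 rose, Naf1 (0.95 ± 0.24) and Nop56 (0.26 ± 0.08), and against sham 0 of 11 were called by limma, edgeR or DESeq2 (3 lower before adjustment, limma p under 0.05). Of 5 signal recognition particle proteins 1 was called, Srp68, lower with injury (-0.37 ± 0.11) and higher with inhibitor against injured (0.26 ± 0.08). Small nuclear RNA and RNA polymerase III factors gave 4 falling and 0 rising of 20 with injury (Snapc4, Ints1, Snapc2 and Polr3e, by 0.38 to 0.80). Against injured 2 rose and 1 fell, and against sham 0 of 20 were called by limma or edgeR and 1 by DESeq2 (before adjustment, limma p under 0.05, 1 was higher and 2 lower). Minor spliceosome proteins gave 2 falling of 8 with injury, then 1 rising and 2 falling, and then 1 falling against sham. Median log2 differences of these 7 lists lay between -0.30 and 0.16 over the 3 comparisons, beside -0.007 to 0.006 for all genes. Genes that host small nucleolar RNAs in their introns gave 2 rising and 2 falling of 22 with injury and 3 and 5 of 23 against injured. Against sham 0 of 22 were called by limma or edgeR (1 by DESeq2, and 4 lower before adjustment, limma p under 0.05). Of all genes tested 20.6% rose and 16.8% fell with injury, 17.6% and 18.5% against injured, and 5.15% and 0.934% against sham. Without the 3 marker-high libraries, with fewer samples, most calls of these lists were lost. With injury 1 of the 11 core proteins, 1 of the 20 factors and 1 of the 22 host genes still fell. Against injured 1 of the 11 still rose, and no other gene of these lists was called there or against sham.

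Malat1 and Neat1, long nuclear RNAs of which Malat1 ends without a poly(A) tail, did not follow the small RNAs. Malat1 lay at 60430, 69052 and 67974 in sham, 148407, 94678 and 52554 in injured and 67690, 73010 and 71458 in inhibitor-treated libraries. Sham and inhibitor-treated values of Malat1 overlapped, and it was not called in any comparison.

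The 9 histone members listed in every table held most of the counts of the class, and the other 12 were rare. These 12 were listed only because their inhibitor-treated level lifted them over the low-count filter, which fixed that they reached that level there. Hist1h2bg and Hist3h2ba among them still overlapped the other groups. The 9 summed to 3181 to 3235 normalised counts in sham, 2997 to 3963 in injured and 3577 to 5778 in inhibitor-treated libraries, so injured and inhibitor-treated sums overlapped. The 12 summed to 28.3 to 37.5, 50.7 to 55.0 and 405 to 493 in the same order. By type the 21 are 3 linker (H1), 2 H2A, 6 H2B, 3 H3 and 7 H4 genes. Of these 15 lie in the large cluster on chromosome 13, 3 on chromosome 3, 2 on chromosome 11 and 1 on chromosome 6. The annotated transcripts of 18 members hold the histone stem-loop, and those of Hist1h2bc, Hist1h2bn and Hist2h2be do not. The motif searched was the histone stem-loop consensus, a stem of 6 base pairs and a loop of 4, on the transcript strand, and 0.318% of 22028 protein-coding genes hold it in a transcript. It is shown because it is where these messages end in place of a poly(A) tail, in the 4 forms found, with the loop in capitals.
Hist1h4c, Hist1h4d, Hist1h4h, Hist1h4m and Hist4h4: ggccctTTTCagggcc
Hist1h4i and Hist2h4: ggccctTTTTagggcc
Hist1h3e and Hist1h3f: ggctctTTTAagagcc
Hist1h1c, Hist1h1d, Hist1h1e, Hist1h2ac, Hist1h2be, Hist1h2bg, Hist2h3c2, Hist3h2a and Hist3h2ba: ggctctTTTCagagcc
All H4 members carry a stem with the same outer and inner bases, and the linker, H2A and H2B members that hold the motif share 1 sequence. The annotated transcript runs on past the stem-loop by 3 bases in Hist1h4m and by up to 4884 in Hist1h1d, so several annotated models include sequence beyond the stem-loop.

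Hist1h1c and Hist1h2bc, a linker histone and an H2B gene, held 66.1% to 80.6% of the normalised counts of the class in every library. Hist1h1c (chr13:23738808-23740367, plus strand) lay at 1516, 1484 and 1466 in sham, 1997, 2093 and 1601 in injured and 2019, 2378 and 1619 in inhibitor-treated libraries. Injured and inhibitor-treated values overlapped, and both groups lay above sham. Hist1h2bc (chr13:23684199-23692908, plus strand) lay at 979, 998 and 918, then 1206, 1074 and 769, and then 1522, 2409 and 1041. Its inhibitor-treated values (1657 ± 694, SD, n = 3, replicate 2 highest) lay above every sham value and overlapped injured, with a mean 1.72-fold the sham and 1.63-fold the injured mean. Hist2h2be, another H2B gene (chr3:96221119-96223738, plus strand), lay at 404, 387 and 382 in sham, 197, 223 and 253 in injured and 422, 376 and 404 in inhibitor-treated libraries, so injured libraries were low and the other 2 groups overlapped. Hist3h2a, an H2A gene inside Trim17, lay at 179, 197 and 200, then 282, 263 and 185, and then 140, 175 and 197.

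The next members by level differed more. Hist1h4i (chr13:22040636-22041362, minus strand), an H4 gene, lay at 5.01, 12.9 and 18.5 in sham, 57.3, 93.9 and 49.8 in injured and 123, 188 and 71.8 in inhibitor-treated libraries. Its sham values lay below all others, while injured and inhibitor-treated values overlapped. Hist1h2be, an H2B gene, lay at 47.1, 73.9 and 82.8, then 43.0, 108 and 36.1, and then 102, 123 and 99.1, and it overlaps Hist1h1e. Hist1h4h, an H4 gene, lay at 49.1, 42.2 and 68.6, then 63.2, 50.3 and 50.7, and then 44.6, 64.2 and 66.3, with no group apart. Hist2h3c2, an H3 gene, lay at 23.0, 30.5 and 32.7, then 69.2, 50.3 and 28.3, and then 25.6, 22.0 and 30.9, and 63.5% of its 50-base words are shared with other genes. Hist2h4, an H4 gene, lay at 2.00, 9.38 and 12, then 9.54, 7.59 and 24, and then 38.9, 43.1 and 48.2, so its inhibitor-treated values lay above the other 6.

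Among the rare histone genes, 3 reached the level of these in inhibitor-treated libraries. Hist1h4d (chr13:23581598-23582735, plus strand) lay at 8.01, 1.17 and 1.09 in sham, 9.54, 0.948 and 2.58 in injured and 93.0, 63.3 and 118 in inhibitor-treated libraries, a mean 21-fold the injured and 26.7-fold the sham mean. Hist1h1e, a linker histone gene, lay at 6.01, 3.52 and 4.36, then 3.58, 18.0 and 4.29, and then 82.6, 70.6 and 67.3. Hist1h4m had no read in any of the 6 sham and injured libraries and lay at 32.3, 95.4 and 73.6 in inhibitor-treated libraries, at least 68.8-fold higher than in injured and at least 62.3-fold higher than in sham with 3 reads per group as the floor. Of its 50-base words 89.8% occur in other genes, most in Hist1h4n, so this value depends on how shared reads were assigned. The other 9 histone members had means of 13.9 to 42.7 in inhibitor-treated, 1.51 to 11.6 in injured and 0.391 to 7.11 in sham libraries. The inhibitor-treated values of Hist1h2bg and Hist3h2ba overlapped those of other groups. For the rest of these 9, and for Hist1h4d, Hist1h1e and Hist1h4m, the listing fixed that the inhibitor-treated level was high.

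**Figure D4:**
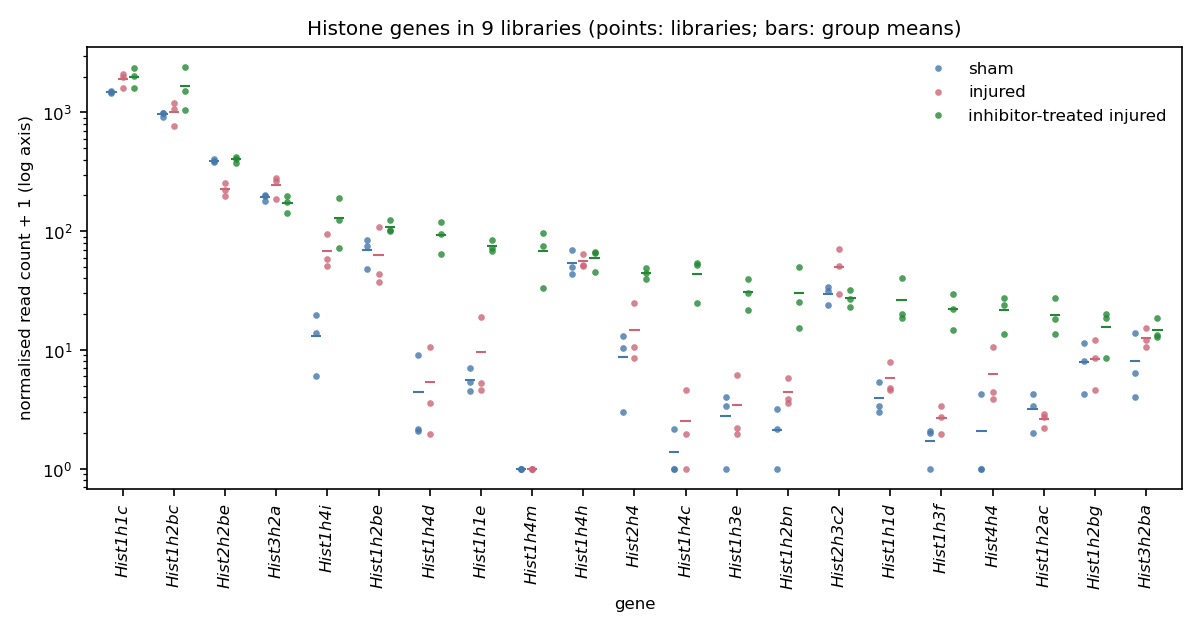
Normalised read count plus 1 on a log axis for the 21 histone genes in each library; points are libraries and bars are group means (n = 3). The most abundant genes are Hist1h1c at 1466 to 2378 and Hist1h2bc at 769 to 2409, whose inhibitor-treated values lie above sham and overlap injured. Of the 12 rare genes listed only through their inhibitor-treated level, all but Hist1h2bg and Hist3h2ba lie above the other groups there.

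Counts were also taken per 1000 bases of annotated transcript, a scale that corrects for length alone. Hist1h1c (954, 1216 and 1285 as means of sham, injured and inhibitor-treated libraries) and Hist1h2bc (835, 879 and 1433) lay far above the next histone gene in inhibitor-treated libraries, Hist1h4i (16.7, 92.1 and 176). Hist1h4m (0, 0 and 167) came after it. On the same scale Rn7sk reached 61899 in inhibitor-treated libraries, Rpph1 10250, Rmrp 8752, Rny1 2132 and Rny3 1251. The Y RNAs, which held fewer reads than Hist1h2bc, thus had counts per length near or above those of the most abundant histone messages in those libraries. In sham and injured means they had 0 to 8.2. RNA selection and the removal of short fragments are not known, so these values do not rank short RNAs and messages by abundance. Annotated lengths were used, and where a transcript ends at the stem-loop its true length is smaller.

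Of the 9 histone members in the table of injured and sham libraries, 1 rose, 1 fell and 7 did not pass the test with injury (20.6% of all genes rose and 16.8% fell), with a median log2 difference of 0.31 beside -0.003 for all genes. Hist1h4i rose by 2.47 ± 0.48 (adjusted p = 0.00439, limma). Hist2h2be fell by 0.81 ± 0.14 (adjusted p = 0.00246, limma). Both kept their call in every alternative run, with adjusted p of 2.54e-05 to 0.0185 for Hist1h4i over 17 and of 2.42e-05 to 0.0290 for Hist2h2be over 18. Hist1h1c was higher in all 3 injured libraries than in all 3 sham libraries and missed the threshold (0.33 ± 0.12, adjusted p = 0.0674, limma). The other 12 histone members were not in that table, since both groups were low. By overlap of the groups 2 were higher and 1 lower of the 9, against 26.0% and 25.3% of all genes.

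With inhibitor-treated libraries, 12 of 21 histone members were past the threshold and higher and 0 lower against injured, where 17.6% and 18.5% of all genes were, and 12 of 21 higher and 0 lower against sham, where 5.15% and 0.934% were. As for the small RNAs, the rule used these contrasts, and 10 of the 12 in each were genes that the tables list only because of their inhibitor-treated level. For the 9 listed in every table, log2 differences ran from -0.81 to 1.76 against injured (median 0.65, highest in Hist2h4) and from -0.17 to 3.36 against sham (median 0.42, highest in Hist1h4i). Without overlap of the groups, 12 were higher against injured (26.1% of all genes) and 15 against sham (14.7%). Without the 3 marker-high libraries 9 and 12 were past the threshold. Against sham 6 were past it under quantile normalisation, 7 without sham replicate 2, 7 without inhibitor-treated replicate 1 and 5 without inhibitor-treated replicate 2.

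S-phase genes rise when cells copy their DNA. Of 24, 14 rose and 2 fell with injury (median log2 difference 0.62, where 20.6% and 16.8% of all genes rose and fell), with cyclin A2 (Ccna2) up by 2.31 ± 0.20, the ribonucleotide reductase subunit Rrm2 by 1.92 ± 0.21, the DNA polymerase subunit Pole by 1.47 ± 0.31 and the transcription factor E2f1 by 1.46 ± 0.18. In inhibitor-treated against injured libraries 3 rose and 14 fell (median -0.64, where 17.6% and 18.5% of all genes did), among them E2f1 (-1.88 ± 0.22), the origin licensing factor Cdt1 (-1.41 ± 0.27), Pole (-1.35 ± 0.26) and Gins1 (-1.34 ± 0.31). Against sham 1 of 24 was called, cyclin E2 (Ccne2, 1.60 ± 0.26, adjusted p = 0.0102, limma), with a median of -0.02. Without the 3 marker-high libraries 9 rose and 1 fell with injury, 2 rose and 4 fell against injured, and 2 rose against sham. Their mean log2 level was 7.03 to 7.12 in sham, 7.68 to 7.82 in injured and 7.09 to 7.27 in inhibitor-treated libraries. The mean log2 level of the 21 histone members was 3.49 to 3.8, 4.08 to 4.26 and 5.89 to 6.23 in the same groups, a description that the 12 members listed through their inhibitor-treated level enter.

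Histone genes outside the class make polyadenylated messages, most of them at all stages of the cell cycle. Of 11, 3 rose and 1 fell with injury (20.6% and 16.8% of all genes) and 7 did not pass: the centromere histone Cenpa (2.21 ± 0.23), H2afz (0.78 ± 0.12) and the linker H1f0 (0.70 ± 0.11) rose and H2afy2 fell (-0.65 ± 0.14). Against injured, 1 rose and 5 fell with inhibitor (17.6% and 18.5% of all genes; 1 and 3 without the 3 marker-high libraries), where Cenpa (-1.56 ± 0.17), H1fx (-0.96 ± 0.28) and H1f0 (-0.85 ± 0.10) fell. The 1 that rose was H3f3a, which encodes the replacement histone H3.3 (1.24 ± 0.22), and it was the only 1 of 11 called against sham (0.87 ± 0.16, adjusted p = 0.0186, limma). H3f3a lay at 3931, 3670 and 3448 in sham, 2201, 3006 and 3408 in injured and 6767, 8542 and 5134 in inhibitor-treated libraries. Its partner H3f3b, which encodes the same protein, lay at 7373, 7387 and 6554, then 10193, 8925 and 7279, and then 7252, 7461 and 6655, with sham and inhibitor-treated values overlapping.

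Histone chaperones gave 4 rising and 1 falling of 14 with injury (20.6% and 16.8% of all genes; Asf1b up by 2.99 ± 0.35, Chaf1b by 1.22 ± 0.28, Chaf1a by 0.94 ± 0.28, Rbbp7 down by 0.50 ± 0.11). Against injured 1 rose and 4 fell (17.6% and 18.5% of all genes). Against sham 1 rose and 0 fell (5.15% and 0.934% of all genes), namely Asf1b (1.66 ± 0.37, adjusted p = 0.0396, limma). Without the 3 marker-high libraries 2 rose and 0 fell with injury, and 0 of 14 passed in the other 2 comparisons (limma; before adjustment, at p under 0.05, 3 higher and 1 lower, then 1 and 2, and then 1 and 1). Factors that form the histone message end gave 3 rising and 1 falling of 11 with injury, near the shares of all genes, and 0 rising and 1 falling without the 3 marker-high libraries (limma; before adjustment, 3 and 1). Slbp, the stem-loop binding protein, rose by 0.49 ± 0.15 (adjusted p = 0.0324, limma), Casp8ap2 by 0.49 ± 0.14 and the exonuclease Eri1, which trims the stem-loop, by 0.57 ± 0.12, and the scaffold Sympk fell by 0.60 ± 0.10. In inhibitor-treated against injured libraries Sympk (0.51 ± 0.09) and Srrt (0.30 ± 0.08) rose and Eri1 fell (-0.53 ± 0.13), of 12 tested (0 without the 3 marker-high libraries by limma; 2 higher and 1 lower before adjustment), and against sham 0 of 11 passed by limma, edgeR or DESeq2 (1 higher before adjustment, limma p under 0.05).

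Erythroid markers, by their mean level, were high in all 3 inhibitor-treated libraries. The 9 histone members listed in every table overlapped between injured and inhibitor-treated libraries in their summed normalised counts. Their sums were 4438, 5778 and 3577 in inhibitor-treated replicates 1 to 3 and 3924, 3963 and 2997 in injured replicates. The other 12, listed only through their inhibitor-treated level, summed to 405 to 493 in inhibitor-treated libraries. Alas2, the heme synthesis enzyme of red cell precursors, lay at 277, 150.1 and 313 in sham, 157, 64.5 and 94.5 in injured and 30976, 72797 and 43268 in inhibitor-treated libraries. Hist1h2bc, Hist1h4i, Hist1h4m and both Y RNAs were highest in inhibitor-treated replicate 2, as Alas2 was, while Rn7sk, Rpph1 and Scarna2 were highest in replicate 1 and Hist1h4d and Hist2h4 in replicate 3. The hepatocyte markers were high in inhibitor-treated replicate 3 alone. The part of blood or liver cells in the levels of either class was not tested.

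**Figure D5:**
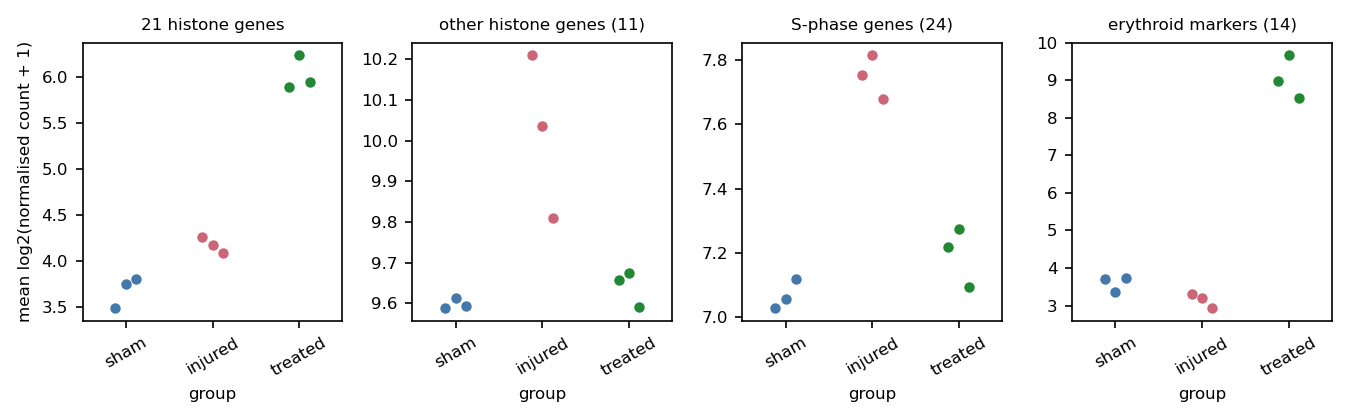
Mean log2(normalised count + 1) of 4 gene lists in each library, one point per library and a separate vertical scale in each panel: the 21 histone genes, 11 other histone genes, 24 S-phase genes and 14 erythroid markers. S-phase and other histone genes are highest in injured libraries. The 21 histone genes (5.89 to 6.23), 12 of which are listed only through their inhibitor-treated level, and the erythroid markers (8.53 to 9.66) are highest in inhibitor-treated ones.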

How the data were processed

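RNA of 9 libraries of femoral artery media was measured as reads per gene in 3 deposited tables, one per pair of groups. The authors deposited a normalised signal per library, which per the values is a read count divided by one factor per library and table. Their tables also hold log2 fold changes and p-values, and the deposited p-values were used only as an alternative. Per the submitters' processing notes the build was mm10 (GRCm38). The aligner, counter, strand setting and RNA selection were not given in the sources used here. Dividing by the value of 1 read returned whole reads for all deposited values (within 0.01 read), and no gene differed between tables. Gene names turned into dates (63 over the tables) were restored by identifier.

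For levels, reads were divided by a median-of-ratios factor of each library, taken over 16750 genes in at least 2 tables. Tests used limma 3.58.1 (R 4.3.3, trended variance) within each table on log2(normalised value + 1), a scale that understates changes of low genes, for genes with a mean of at least 10 over 6 libraries (16278, 16901 and 16166 genes), with Benjamini-Hochberg adjustment. Errors of log2 differences are standard errors. Tables list no gene with a mean under 9.22. The test was checked on simulated data: of 100 genes changed by a log2 of 2, 92%, 82% and 88% were recovered in injured versus sham, inhibitor-treated versus injured and inhibitor-treated versus sham. Of 100 changed by a log2 of 1, 60%, 47% and 63% were recovered in the same order, so many changes of that size or smaller can be missed. Low members are limited by counting, and intervals cover counting error only. Alternatives were pseudocounts of 0.5 and 8, no filter, a mean of at least 50, quantile normalisation, scaling without the members and erythroid markers, edgeR 4.0.16 and DESeq2 1.42.0 on the recovered reads, the authors' test, a replicate block, all libraries in 1 fit, each library left out, and, added after earlier results were known, the 3 marker-high libraries left out.

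Sequences, coordinates and hosts are from GENCODE vM21, of the same build. Members and lists were chosen with earlier results of these data known. Named with every value were all small RNA members, the 12 histone members with the highest mean, the 6 largest and 6 smallest differences between inhibitor-treated and injured libraries among those with a mean of at least 100, and histone members called with injury. From each partner list up to 4 called genes of largest change per comparison were eligible. Other genes named were chosen after their values were seen.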

Additional observations from a re-analysis of the deposited data

How the results depend on the processing

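No single member that passed the threshold in the main or an alternative run reversed its direction in injured versus sham. Counts of genes called were compared by size and not by direction. Of all genes called in injured versus sham, 55.1% were higher, and 45.9% under quantile normalisation. Over the counts of genes called, 139 values under the alternatives stayed within 1.5 times the reported one and 23 did not. Over single members in injured versus sham, 346 kept their side of the threshold, 9 lost it and 9 gained it. With a mean of at least 50 fewer members are tested: in injured versus sham 1 histone and 0 small RNA members were called (1 small RNA tested), in inhibitor-treated versus injured 1 and 6, and in inhibitor-treated versus sham 1 and 6. Quantile normalisation called 5 small RNA members in injured versus sham, all lower, and 6 histone members in inhibitor-treated versus sham; the cause was not tested. Leaving out the 3 marker-high libraries called 0 small RNA members in injured versus sham and 3069 genes in inhibitor-treated versus injured (6099 in all libraries), with fewer samples; at an unadjusted limma p under 0.05, 1 small RNA member was higher and 1 lower there.

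Replicate numbers did not pair the samples: deviations of same-numbered libraries correlated by 0.05, -0.06 and -0.08 (injured and sham), 0.00, 0.19 and 0.02 (inhibitor-treated and injured) and 0.11, -0.07 and 0.07 (inhibitor-treated and sham). With the replicate block 1 small RNA member was called in injured versus sham.

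With 1 library left out, injured versus sham gave 4350 to 7312 genes, 2 to 5 histone members (5 without injured replicate 3) and 1 to 2 small RNA members. Inhibitor-treated versus injured gave 4099 to 7938 genes, 10 to 13 and 12 to 13 members. Inhibitor-treated versus sham gave 518 to 822 genes (983 in all libraries; 518 without sham replicate 1, 599 without sham replicate 2, 601 without inhibitor-treated replicate 1 and 541 without inhibitor-treated replicate 2), 5 to 13 histone and 9 to 11 small RNA members. Short members rest on few reads, so differences of the size of their spread were not detectable.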

Other observations

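Small RNA genes that the annotation lists but the name rule missed (48 genes, nearly all with Gm symbols) were tested in the same fits. Of 27 tested in injured versus sham, 6 rose and 0 fell, with a median log2 difference of 0.29, where 20.6% of all genes tested rose and 16.8% fell. None of the 6 was tested in inhibitor-treated versus sham libraries. Their injured level alone lifted them over the low-count filter, so they had to be high there and nothing is read from these calls. Gm26497, annotated as a small nuclear RNA of 107 bases, rose by 3.49 (adjusted p = 0.00439, limma): it lay at 3.00, 1.17 and 0 in sham, 34.6, 27.5 and 12 in injured and 7.59, 13.8 and 2.73 in inhibitor-treated libraries. In inhibitor-treated versus injured libraries 9 of 43 were called higher and 2 lower (17.6% and 18.5% of all genes), and in inhibitor-treated versus sham 6 of 34 higher and 0 lower (5.15% and 0.934% of all genes). Of the genes called higher, only Gm22009 was also tested in injured versus sham. The others passed the filter through their inhibitor-treated level, and the 2 called lower through their injured level, so these counts are a description.

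The 5 of these genes that stood apart in inhibitor-treated libraries were as large as the rarer named members. For all of them but Gm22009, the inhibitor-treated level had lifted them over the low-count filter. Gm22009, a small Cajal body RNA, lay at 40.1, 22.3 and 25.0 in sham, 23.9, 9.48 and 10.3 in injured and 550, 203 and 249 in inhibitor-treated libraries. Gm26397, a small nucleolar RNA of 134 bases, lay at 1.00, 0 and 3.27, then 4.77, 0 and 3.44, and then 139, 54.1 and 41.8. In both, inhibitor-treated replicate 1 was highest, as for Rn7sk. These genes were chosen after their values were seen.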
